A study of Sus scrofa with 36 samples.

Results

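The cytosolic chaperone HSP90, its co-chaperones AHSA1, FKBP4 and STIP1, the mitochondrial chaperonin pair HSPD1 and HSPE1, and the heat shock factor HSF1 were followed in the liver of pigs kept at thermoneutrality or under heat. Probes were assigned to these 8 genes when the gene name, RefSeq accession or description in the array files named one of them, and were kept when at least 6 of the 36 arrays had them well above background. This gave 52 probes for 7 genes, namely 8 for HSP90AA1, 7 for HSP90AB1, 5 for AHSA1, 3 for FKBP4, 22 for HSPD1, 6 for HSPE1 and 1 for HSF1, out of 44796 kept probes of 60305 on the array. All 52 were well above background on all 36 arrays. STIP1, the co-chaperone that links HSP70 to HSP90, was matched to no probe by the names, accessions and descriptions used here, which can be older than later annotations of the array, and it was not analysed here.

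The animals were castrated growing males of 3 genetic types raised in Guadeloupe with free access to feed: Large White (LW), Creole (CR) and their cross (F1). Each type gave 6 animals at 24 °C (TN) and 6 under heat stress (HS), for which the sample labels state 30 °C and the growth protocol 32 °C for up to 5 days. Whole liver RNA was hybridised to 1-colour Agilent arrays of 60-base probes. All HS pigs were slaughtered later than the TN pigs, and the effect of heat cannot be told apart from that of slaughter day or age. The authors reported lower feed intake under heat, so the effect of eating less cannot be told apart either. Litter, pen and the days each pig spent in heat are not in the labels, and p-values do not account for them. On principal component 1, computed over kept probes with no missing value, which held 18.6% of the variance, LW TN 1 and LW TN 6 lay at -4.83 and -3.04 where the other LW animals lay between -44.2 and -24.8, and F1 HS 1, F1 HS 2 and F1 TN 3 lay between -21.3 and -17.0266 where the other F1 animals lay between -1.31 and 36.9. Counts of called member probes that move by over 1.5 times without these 5 animals are given both ways. The 5 animals were picked by these same expression values, and leaving them out widens the gap between LW and F1 on this component. Counts without them are descriptions only. By the numbers in the sample titles, F1 HS 1, F1 HS 2, LW TN 6 and LW TN 1 run in order from GC45143 to GC45146. All comparisons of breeds use the labels as given. Whether the breed labels of the 5 animals are right was not tested. As these are whole liver samples, fewer cells of a type and less RNA per cell cannot be told apart.

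HSP90 is an ATP-driven chaperone that completes the folding of client proteins such as steroid hormone receptors and kinases. HSP90AA1 encodes the more stress-inducible cytosolic form and HSP90AB1 the more constitutive one. AHSA1 stimulates the HSP90 ATPase, and FKBP4 is an immunophilin that joins HSP90 on steroid receptors. HSPD1 (HSP60) forms the folding chamber of the mitochondrial matrix and HSPE1 (HSP10) its lid. HSF1 is the transcription factor that switches on heat shock genes and is held inactive by chaperones, HSP90 among them, in unstressed cells.

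On the Sscrofa11.1 assembly HSPD1 lay at chr15:101360355-101373498 and HSPE1 at chr15:101374019-101376146, with 520 bases between them. HSP90AB1 lay at chr7:39237299-39250479, AHSA1 at chr7:100510596-100520353, FKBP4 at chr5:67314010-67321628 and HSF1 at chr4:463531-486483. HSP90AA1 is on an unplaced sequence of this assembly. These are gene positions from the RefSeq gene table. The probes were not placed on the genome here.

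The probes themselves matter for reading the results, because several genes gave different answers from different probes. The 2 HSP90 paralogs are close enough to be aligned within their probes: over a stretch of 49 bases, probe A_72_P174931 of HSP90AA1 and probe A_72_P424164 of HSP90AB1 had 37 equal letters and 12 different ones, which are in capitals below. Signal from the other paralog on either probe was not tested.
HSP90AA1 A_72_P174931: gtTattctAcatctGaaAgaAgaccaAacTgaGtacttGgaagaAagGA
HSP90AB1 A_72_P424164: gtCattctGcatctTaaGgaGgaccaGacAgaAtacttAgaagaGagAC

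For HSP90AA1 the next 3 probes are shown because animals ranked differently on the first than on the other 2. The first starts at base 662 of the transcript in the files, the second at base 1473 and the third at base 1898. The third sequence was on the array under 2 probe names, A_72_P525187 and O8902.
HSP90AA1 A_72_P700356: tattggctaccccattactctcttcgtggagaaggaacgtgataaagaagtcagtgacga
HSP90AA1 A_72_P669304: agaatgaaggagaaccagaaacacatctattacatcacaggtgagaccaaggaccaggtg
HSP90AA1 A_72_P525187: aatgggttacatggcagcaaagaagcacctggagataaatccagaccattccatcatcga

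For FKBP4 and AHSA1, the brightest probe of each gene ended in the 30 bases below, with AATAAA in capitals, the letters of the common polyadenylation signal; 7.99% of all probe sequences on the array hold these letters in their last 30 bases on the same strand. For contrast, another probe of each gene, with at least 1 forward frame free of stop codons, is given whole.
FKBP4 A_72_P352858, end: gtgcttgagcAATAAAgtggaaacaaaaaa
FKBP4 O14640: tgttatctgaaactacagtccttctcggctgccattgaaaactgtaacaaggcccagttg
AHSA1 A_72_P361363, end: tatgtgtacatacgctaAATAAAcgtaatt
AHSA1 A_72_P363998: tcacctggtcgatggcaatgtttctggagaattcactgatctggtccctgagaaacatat

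Probe O14652, filed under HSP90AB1, read the opposite strand: its first 30 bases were the reverse complement of the first 30 bases of A_72_P051491, the brightest HSP90AB1 probe. Its log2 signal was 5.55 to 6.10 over the 36 animals.
HSP90AB1 A_72_P051491, first bases: tctcctctgctgatgtctagtggttttatt
HSP90AB1 O14652, first bases: aataaaaccactagacatcagcagaggaga

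HSPE1 probe O8477 shared 26 bases with A_72_P752325 except for 1 letter, in capitals, and then went on in a different sequence. The HSPD1 probe shown last carried the largest breed difference of that gene.
HSPE1 A_72_P752325, shared part: ggaggcaccaGagtagttctggatga
HSPE1 O8477, shared part: ggaggcaccaAagtagttctggatga
HSPE1 O8477, next bases: caaggtgtgtaaacttaataattttaacaa
HSPD1 A_72_P110291: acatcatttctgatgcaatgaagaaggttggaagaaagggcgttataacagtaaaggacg

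Probes that share a run of 20 or more bases with another probe of their gene are not independent measurements: this held for 18 of the 22 HSPD1 probes, 4 of the 8 HSP90AA1 probes and 4 of the 7 HSP90AB1 probes. Signals are log2 values after quantile normalization between arrays, and each gene's representative is its probe with the highest mean signal. The 2 copies of the identical HSP90AA1 sequence showed how closely a measurement repeats. After removal of group means they correlated with r = 0.950 over 36 animals, and their difference had an SD of 0.0912 on the log2 scale.

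The first question was whether heat changed the HSP90 machinery in the liver. None of the 52 probes passed an adjusted p of 0.05 for HS minus TN (limma, breed and temperature in the model, Benjamini-Hochberg adjustment over all kept probes), where 0.857% of all kept probes did (0.435% higher and 0.422% lower). At an unadjusted p under 0.05 there were 9 of 52 member probes, against 13.1% of all kept probes. The genes nonetheless did not lie around 0 alike: all 8 HSP90AA1 probes and all 5 AHSA1 probes had lower means in HS, all 7 probes filed under HSP90AB1 had higher means, O14652 of the opposite strand included, and the median over all 52 was 0.05 beside 0.00 over all kept probes. None of these differences passed the test. Of all kept probes 49.4% had lower means in HS. Probes of a gene were read in the same animals, so their shared signs are not independent.

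**Figure D1:**
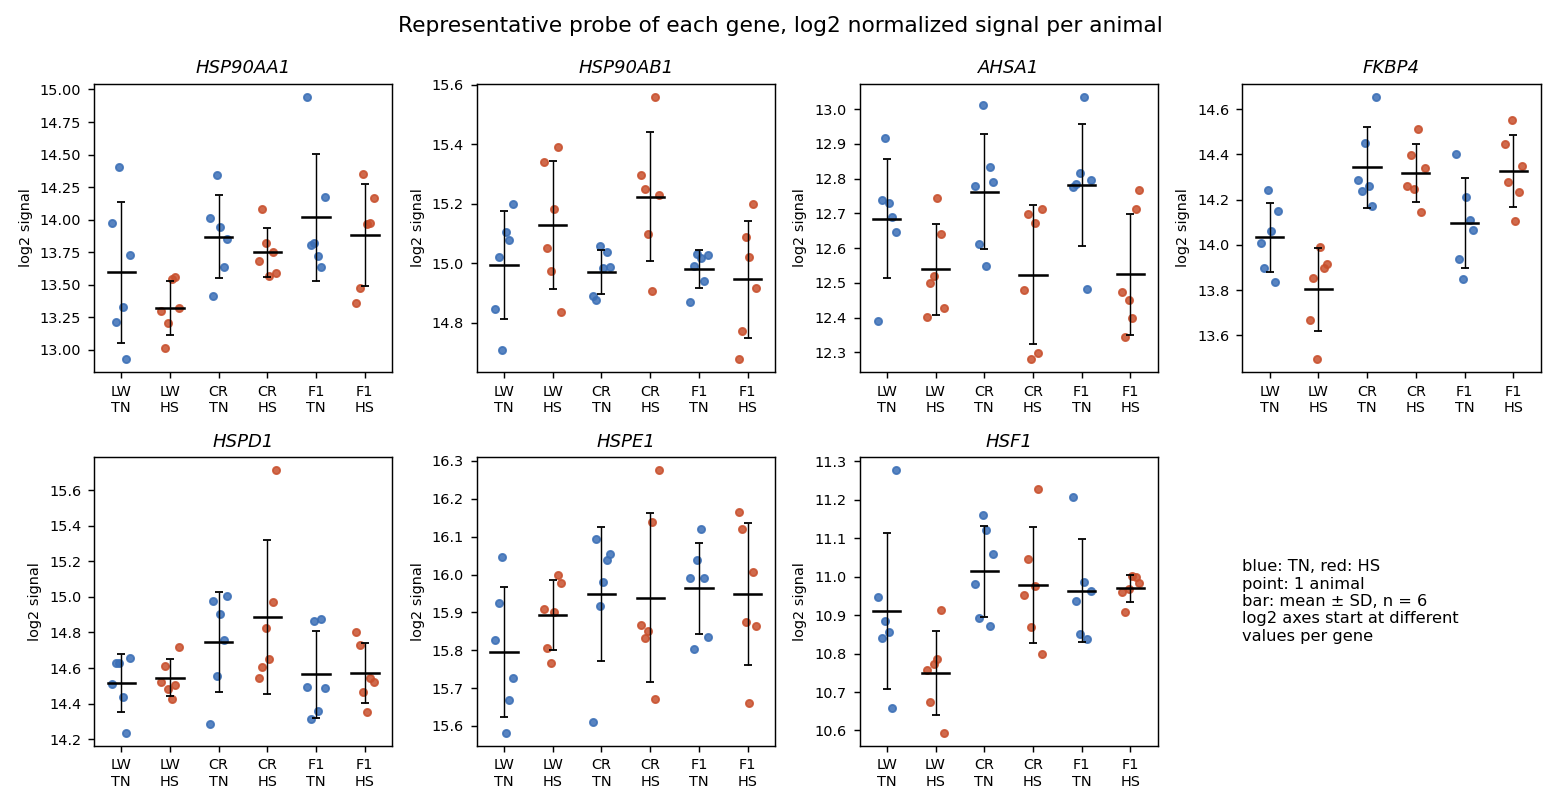
Log2 normalized signal (vertical axes, scaled per gene) of each gene's representative probe in every animal of the 6 groups; bars are the mean ± SD of 6 animals. AHSA1 means were lower in HS in each breed with overlapping ranges, FKBP4 was lowest in LW HS, and 1 CR HS animal stood at 15.71 for HSPD1.

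AHSA1, the HSP90 activator, came nearest to the threshold. In LW, its representative probe A_72_P361363 ranged from 12.39 to 12.92 with a median of 12.71 in TN and from 12.40 to 12.74 with a median of 12.51 in HS. In CR the range was 12.55 to 13.01 (median 12.78) in TN and 12.28 to 12.71 (median 12.58) in HS. In F1 it was 12.48 to 13.04 (median 12.79) in TN and 12.34 to 12.77 (median 12.46) in HS. The ranges overlapped in every breed, yet 17 of the 18 HS animals lay below the TN mean of their own breed. The difference was -0.21 ± 0.06 (SE; n = 18 per temperature), that is 1.16-fold lower in HS, with a limma adjusted p of 0.0538. Probe O12478, which overlaps it, gave -0.20 ± 0.06 (adjusted p = 0.0883), also with 17 of 18 animals below. The other 3 AHSA1 probes gave -0.17, -0.17 and -0.19, and all 5 had an unadjusted p under 0.05. The representative passed the threshold with slide in the model (adjusted p = 0.038), with the scanner's processed signal (0.0347) and with normexp background correction (0.0497), at a difference between -0.25 and -0.21. Without any 1 of the 5 slides, no member probe passed.

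HSP90AA1 had lower means in HS on every probe, by 0.13 to 0.27 on the log2 scale. The representative A_72_P700356 ranged from 12.93 to 14.40 in LW TN (median 13.53) and from 13.01 to 13.56 in LW HS (median 13.31). In CR it ranged from 13.41 to 14.34 (median 13.90) in TN and from 13.57 to 14.08 (median 13.72) in HS. In F1 it ranged from 13.64 to 14.94 (median 13.81) in TN and from 13.36 to 14.35 (median 13.97) in HS. The spread within groups was wide, and in F1 the median was higher in HS although the mean was lower. The difference was -0.18 ± 0.12 (95% CI -0.41 to 0.06; adjusted p = 0.578). The downstream probes A_72_P232852 and A_72_P669304 had the largest differences, -0.27 ± 0.10 and -0.26 ± 0.10 (adjusted p = 0.191 and 0.225).

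HSP90AB1 had higher means in HS on its 6 probes of 1 strand, by 0.05 to 0.14, and none passed. O14652, of the opposite strand, gave 0.06 (adjusted p = 0.664). Its representative A_72_P051491 ranged from 14.71 to 15.20 in LW TN and 14.84 to 15.39 in LW HS. In CR it ranged from 14.88 to 15.06 in TN and 14.91 to 15.56 in HS. In F1 it ranged from 14.87 to 15.03 in TN and 14.68 to 15.20 in HS. Of the 6 CR HS animals, 5 were above every CR TN animal, whereas the F1 HS animals fell on both sides of F1 TN, and the SD in HS (0.23) was larger than in TN (0.11). The overall difference was 0.12 ± 0.06 (95% CI -0.002 to 0.24; adjusted p = 0.392), and that within CR was 0.25 ± 0.10 (adjusted p = 0.535).

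FKBP4 gave different answers at its 2 kinds of probe. At the transcript end, probe A_72_P352858 had a difference of -0.01 ± 0.06 (95% CI -0.14 to 0.12; adjusted p = 0.977), while the other 2 probes, which correlated with each other, gave -0.19 and -0.23 (adjusted p = 0.383 and 0.135). After removal of group means these 2 probes also correlated with the end probe (r = 0.525 and 0.609). Breed by breed, the end probe ranged from 13.84 to 14.24 in LW TN and 13.50 to 13.99 in LW HS. It ranged from 14.17 to 14.65 in CR TN and 14.15 to 14.51 in CR HS, and from 13.85 to 14.40 in F1 TN and 14.11 to 14.55 in F1 HS. HS minus TN was thus -0.23 for LW, -0.03 for CR and 0.23 for F1 animals, each ± 0.10 (SE; n = 6 per group). The breed by temperature interaction had an unadjusted p of 0.0082, which did not pass adjustment over all probes (limma moderated F test, adjusted p = 0.995), in a comparison where 0% of all kept probes passed and 3.74% had an unadjusted p under 0.05. Probe O14640 did not repeat this order: its differences were -0.04 for LW, -0.26 for CR and -0.40 for F1 animals.

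The mitochondrial pair showed no difference past the threshold. HSPD1 representative A_72_P590009 differed by 0.06 ± 0.08 (95% CI -0.11 to 0.22; adjusted p = 0.844), or 0.0024 without CR HS 6, and its 22 probes ranged from -0.13 to 0.11. HSPE1 representative A_72_P137646 differed by 0.02 ± 0.06 (95% CI -0.09 to 0.14; adjusted p = 0.91). HSF1, measured by the single probe O13343, ranged from 10.66 to 11.28 in TN and from 10.59 to 11.23 in HS over all breeds. Its difference was -0.06 ± 0.05 (95% CI -0.16 to 0.03; adjusted p = 0.629), and the LW HS animals, at 10.59 to 10.91, were the lowest group. Its level in F1 HS was tight, between 10.91 and 11.0021. The probe was designed from a bovine accession.

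Within single breeds no member probe passed for HS minus TN. The background was 0% within LW and also 0% within CR, and it was 0.00893% within F1 (0.00446% higher and 0.00446% lower). At an unadjusted p under 0.05 there were 2 member probes in LW, 4 in CR and 8 in F1, where all kept probes gave 5.11%, 7.4% and 9.3%. AHSA1 means were lower in HS on all 5 probes in each breed. HSPD1 means were higher in HS on 21 of 22 probes within LW and 20 within CR, but lower on 18 of 22 within F1, and the interaction did not pass for any of them. The count within CR rested on CR HS 6: without this animal 7 of the 22 probes had higher means in HS and 15 lower, and the median over the 22 went from 0.11 to -0.04. The intervals of the representatives within a breed spanned between -0.70 and 0.45 on the log2 scale.

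**Figure D2:**
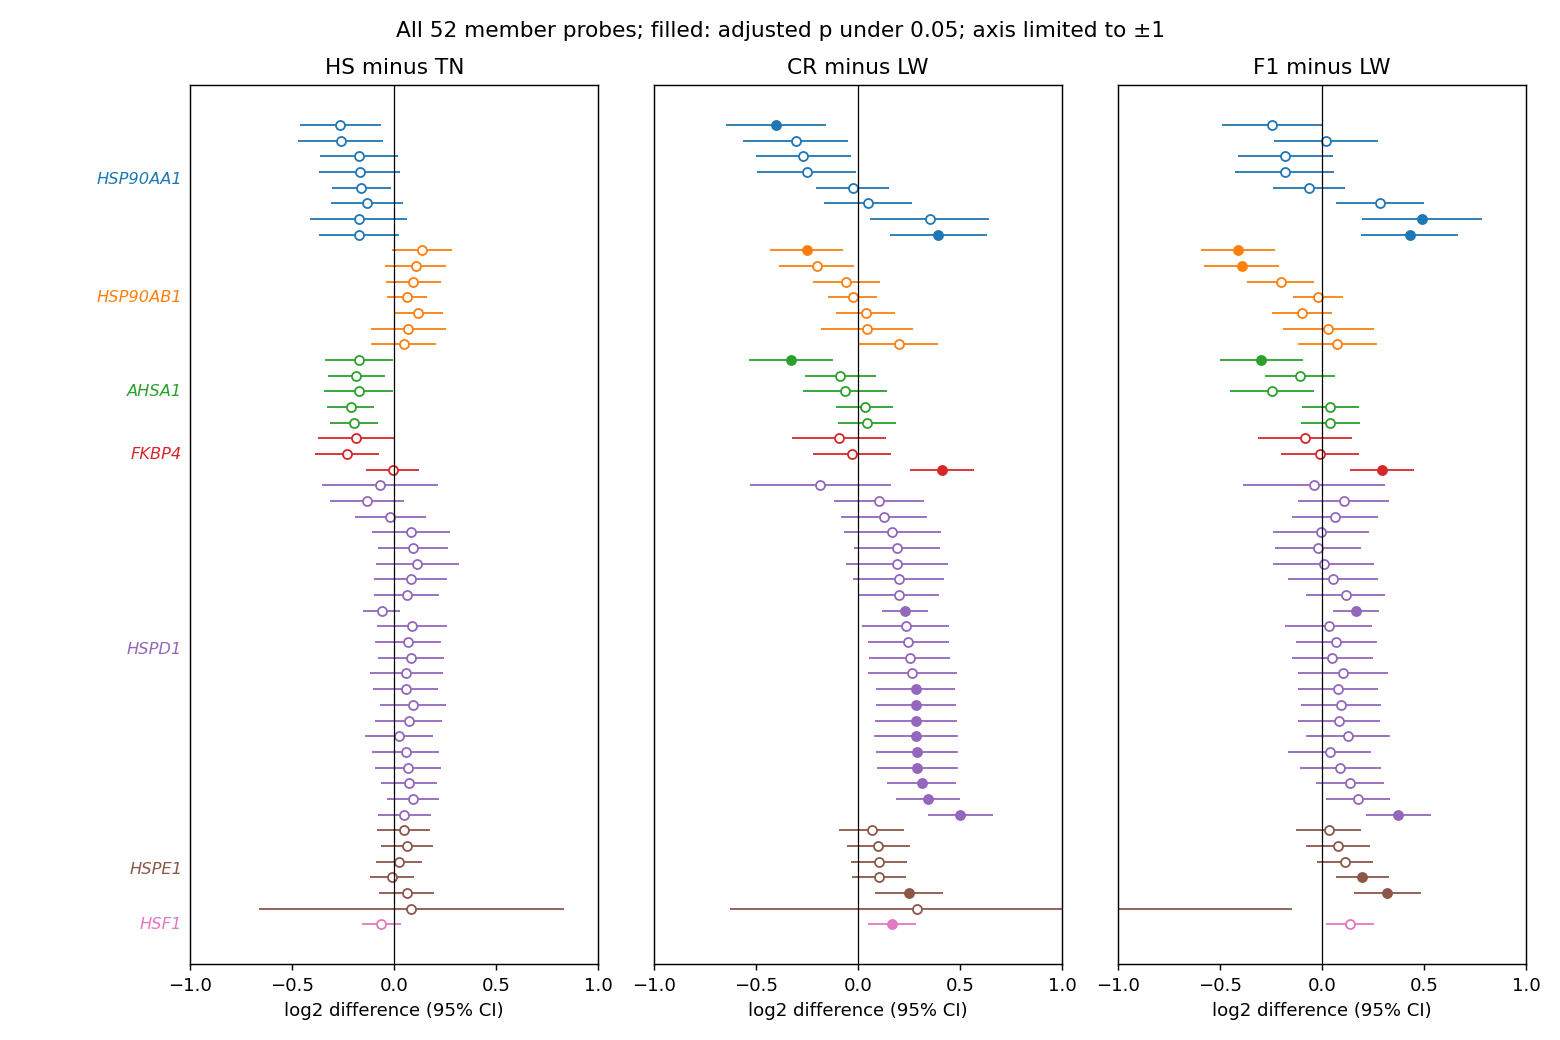
Log2 difference with 95% confidence interval for all 52 probes (rows, grouped by gene and sorted by CR minus LW) in HS minus TN, CR minus LW and F1 minus LW; filled points passed an adjusted p of 0.05. No point is filled for HS minus TN, 17 are filled for CR minus LW and 10 for F1 minus LW; HSPE1 probe O8477, at -1.06 for F1 minus LW, lies beyond the axis.

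The next question was whether the breeds differed. For CR minus LW, 17 of the 52 probes passed, 14 higher and 3 lower in CR, against a background of 26.5% of all kept probes (13.6% higher and 12.9% lower); the share of member probes is 32.7%, and 10 of the 17 were HSPD1 probes, most of which overlap. For F1 minus LW 10 passed, 7 higher and 3 lower, against a background of 18.3% (9.13% higher and 9.22% lower); without the 5 animals apart 16 passed, where 32.3% of all kept probes did. At an unadjusted p under 0.05 there were 28 member probes for CR minus LW and 17 for F1 minus LW, where all kept probes gave 37.6% and 31.8%. No member probe passed for F1 minus CR or for F1 minus the mean of LW and CR, where 1.5% (0.761% higher, 0.743% lower) and 1.13% (0.464% higher, 0.661% lower) of all kept probes passed; without the 5 animals apart 1 and 7 member probes did, against 2.39% and 17.0% of all kept probes. At an unadjusted p under 0.05 each of these last 2 comparisons held 10 member probes, against 12.5% and 15.2% of all kept probes. The same 12 LW animals serve CR minus LW and F1 minus LW, so these are not independent.

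FKBP4 at its end probe was the clearest breed difference among the representatives. LW ranged from 13.50 to 14.24 (median 13.91), F1 from 13.85 to 14.55 (median 14.22) and CR from 14.15 to 14.65 (median 14.27), 12 animals each. CR exceeded LW by 0.41 ± 0.08, 1.33-fold (adjusted p = 0.00019), and F1 exceeded LW by 0.29 ± 0.08, 1.23-fold (adjusted p = 0.00853). The order was LW, F1, CR, and the neighbours F1 and CR did not differ beyond their spread (-0.12 ± 0.08, 95% CI -0.28 to 0.04, adjusted p = 0.593). The other 2 FKBP4 probes did not show it, with CR minus LW of -0.10 and -0.03.

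HSPD1 had higher means in CR than in LW on 21 of its 22 probes, with a median difference of 0.25. At the representative, LW ranged from 14.24 to 14.72 (median 14.52), F1 from 14.31 to 14.87 (median 14.51) and CR from 14.29 to 15.71 (median 14.79). CR minus LW was 0.29 ± 0.10, 1.22-fold (adjusted p = 0.0296), and the highest CR animal, CR HS 6, carried part of it: without this animal the difference was 0.21 (adjusted p = 0.0528). With the scanner's processed signal it was 0.16 (adjusted p = 0.282). Probe A_72_P110291 did not rest on that animal: it ranged from 10.85 to 11.50 in LW, 11.37 to 11.82 in F1 and 11.46 to 12.37 in CR, so that LW and CR barely overlapped. Its CR minus LW was 0.50 ± 0.08, 1.42-fold (adjusted p = 2.24e-05), and its F1 minus LW 0.37 ± 0.08 (adjusted p = 0.00186), past the threshold under all 51 alternatives tried for each. O3429, also filed under HSPD1 and dim at a mean log2 signal of 6.01, was 0.23 ± 0.06 higher in CR (adjusted p = 0.00214) and showed no correlation with the representative (r = -0.03). Among the HSPD1 probes only A_72_P110291 and O3429 passed for F1 minus LW. A_72_P110291 correlated with the representative at r = 0.48, and the representative's medians in F1 and LW were 14.51 and 14.52.

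HSF1 was higher in CR than in LW by 0.17 ± 0.06, 1.12-fold (adjusted p = 0.0298). LW ranged from 10.59 to 11.28 and CR from 10.80 to 11.23, so the groups overlapped over most of their range. F1 minus LW was 0.14 ± 0.06 (adjusted p = 0.093). The CR call was lost in 9 of 51 alternatives, among them the authors' own normalized values (0.11, adjusted p = 0.13). AHSA1 had no breed difference at its representative (CR minus LW 0.03 ± 0.07, adjusted p = 0.786), and only A_72_P533949 passed, at -0.33 ± 0.10 (adjusted p = 0.0139). HSP90AB1 was likewise close to 0 at its representative (0.04 ± 0.07, adjusted p = 0.76). Its pair of overlapping probes A_72_P690394 and A_72_P623359 were lower in F1 than in LW by 0.41 and 0.39 (adjusted p = 0.00212 and 0.00346). A_72_P690394 also passed as lower in CR than in LW (means 9.49 and 9.75), a call lost in 14 of 51 alternatives.

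For CR minus LW, HSP90AA1 probes towards its 2 ends differed in opposite directions, by amounts that depended on the probe. Of the 8 probes, 2 start at bases 227 and 662 of the transcript, and A_72_P174931, with no start in the files, aligned to an HSP90AB1 probe starting at base 782 of that gene's transcript; these 3 are called upstream. The other 5 start at base 1473 or later, counting O8902 by its identical sequence, and are called downstream. This grouping was made after the values were seen and gets no test. Deviations from group means correlated at 0.77 to 0.94 among the upstream probes, 0.46 to 0.95 among the downstream probes and -0.21 to 0.51 between the sets (36 animals, shared arrays). A_72_P174931 was higher in CR than in LW by 0.39 ± 0.12 (adjusted p = 0.0121), and A_72_P232852, downstream, was lower by 0.40 ± 0.12 (adjusted p = 0.0121). The other HSP90AA1 probes did not pass for CR minus LW. Upstream, A_72_P700356 had means of 13.46 in LW and 13.81 in CR, and A_72_P634756 of 10.56 and 10.61. Downstream, A_72_P683318 had means of 13.19 in LW and 13.16 in CR. For F1 minus LW the upstream probes gave 0.49, 0.43 and 0.28, of which the first pair passed (adjusted p = 0.017 and 0.0109), and the downstream probes -0.25 to 0.02.

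Animal by animal, the mean of the upstream probes minus the mean of the downstream ones ran from -0.55 to 1.07 on the log2 scale. It was -0.55 to 0.63 in LW TN (median -0.06), -0.49 to 0.03 in LW HS (median -0.22) and -0.11 to 0.72 in CR TN (median 0.37). It was 0.03 to 0.72 in CR HS (median 0.53), -0.13 to 1.07 in F1 TN (median 0.11) and -0.19 to 1.01 in F1 HS (median 0.68). The LW animals were mostly low and the CR animals mostly high, with overlap. The F1 animals were split, some at -0.19 to 0.14 and the others at 0.55 to 1.07. On principal component 1 of all kept probes the former lay between -21.3 and 3.66 and the latter between 14.6 and 36.9. The highest LW animal, LW TN 1 at 0.63, was among the 5 animals apart. Whether the split is particular to HSP90AA1 was not tested. The base levels of these probes depend on each probe, so only the differences between animals carry information.

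**Figure D3:**
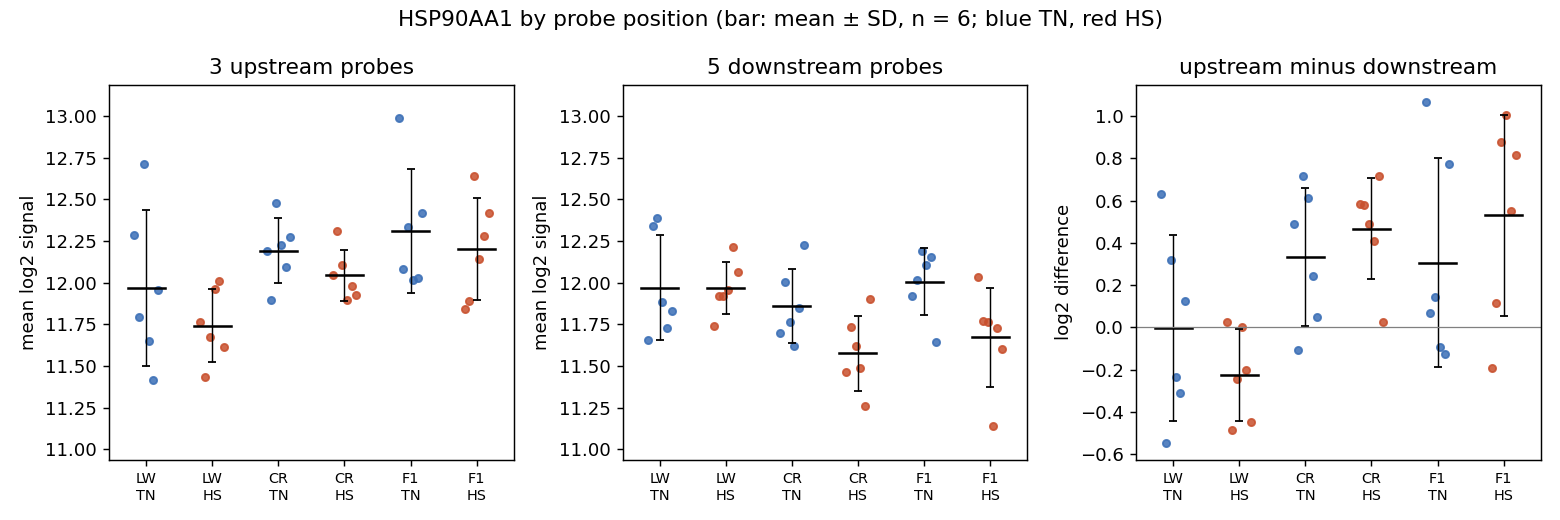
Mean log2 signal of the 3 upstream and the 5 downstream HSP90AA1 probes and their difference (vertical axes) in each animal of the 6 groups, with mean ± SD of 6 animals. Upstream signal was lowest in LW HS (median 11.72), downstream signal lowest in CR HS (median 11.55), and the difference lay between -0.55 and 1.07.

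HSPE1 had 1 probe that split the animals. O8477 gave log2 signals of 10.35 to 10.79 in 6 animals and 13.13 to 14.54 in the other 30, with a gap of 2.33 and no animal between. The low animals were F1 TN 1, 2 and 6, F1 HS 3 and 4 and LW HS 3, so 5 of 12 F1, 1 of 12 LW and 0 of 12 CR animals, at both temperatures. On A_72_P752325, with which O8477 shares the 26 bases shown above, the same 6 animals had 14.65 to 14.82, inside the 14.11 to 15.004 of the others. On the representative they had 15.66 to 15.99, inside 15.58 to 16.27. The split was thus seen at 1 of the 6 HSPE1 probes and its cause was not tested. Elsewhere in this gene A_72_P746004 passed for CR minus LW (0.25 ± 0.08, adjusted p = 0.0214) and F1 minus LW (0.32 ± 0.08, adjusted p = 0.00673), and A_72_P752325 for F1 minus LW (0.20 ± 0.06, adjusted p = 0.0305, lost in 10 of 51 alternatives). The representative did not pass (0.10 and 0.11).

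**Figure D4:**
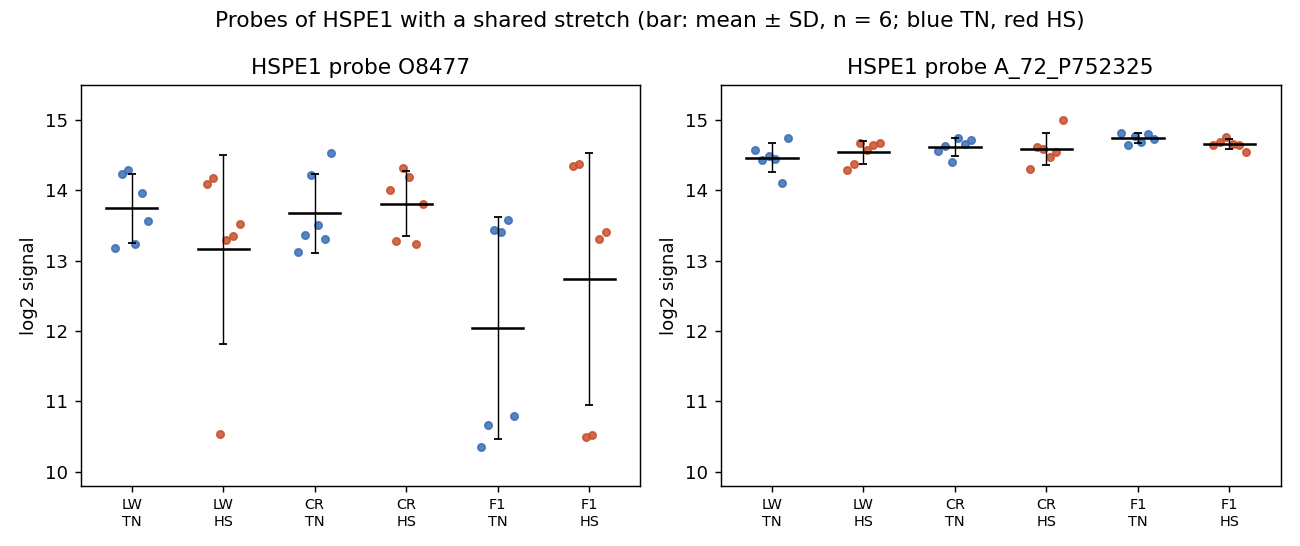
Log2 signal (vertical axes, same scale) of HSPE1 probes O8477 and A_72_P752325 in each animal of the 6 groups, with mean ± SD of 6 animals. On O8477, 6 animals lie between 10.35 and 10.79 and all others at 13.13 or above, while A_72_P752325 shows no such split.

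Co-variation among the members was examined over the 36 animals with deviations from the 6 group means, so that mean differences between the groups do not enter. Differences between animals of a group along principal component 1 were not removed. The correlations were not computed without the 5 animals apart. Among the 21 pairs of the 7 representatives, 2 passed (permutation within groups, 100000 resamples, two-sided, adjusted over the 21 pairs). HSPD1 and HSPE1, the neighbouring genes of the mitochondrial chaperonin, correlated with Pearson's r = 0.614 (permutation p = 0.00076, adjusted p = 0.016) and Spearman's rho = 0.582 (p = 0.00085, adjusted p = 0.00893). Without the 2 animals farthest from the HSPD1 median r was 0.440, and with slide removed it was 0.764. HSP90AA1, at its upstream probe A_72_P700356, and HSF1 correlated with r = 0.558 (permutation p = 0.00207, adjusted p = 0.0217) and rho = 0.640 (p = 6e-05, adjusted p = 0.00126). Here r was 0.557 without the 2 farthest animals and 0.571 with slide removed. With the scanner's processed signal it was 0.451 and with the authors' normalized values 0.407, and neither passed adjustment (permutation p adjusted, 0.0834 and 0.172). The relation depended on the HSP90AA1 probe: the other 2 upstream probes gave an r with HSF1 of 0.295 and 0.471, and the 5 downstream probes gave -0.364 to -0.0319. The 2 cytosolic HSP90 genes did not co-vary detectably (r = 0.034, rho = 0.139, permutation p = 0.844 and 0.441; adjusted 0.844 and 0.488; r = 0.285 without the 2 farthest animals), nor did HSP90AA1 and its activator AHSA1 (r = 0.222, rho = 0.212, permutation p = 0.234 and 0.242; adjusted 0.409 and 0.343; r = 0.159 without them).

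**Figure D5:**
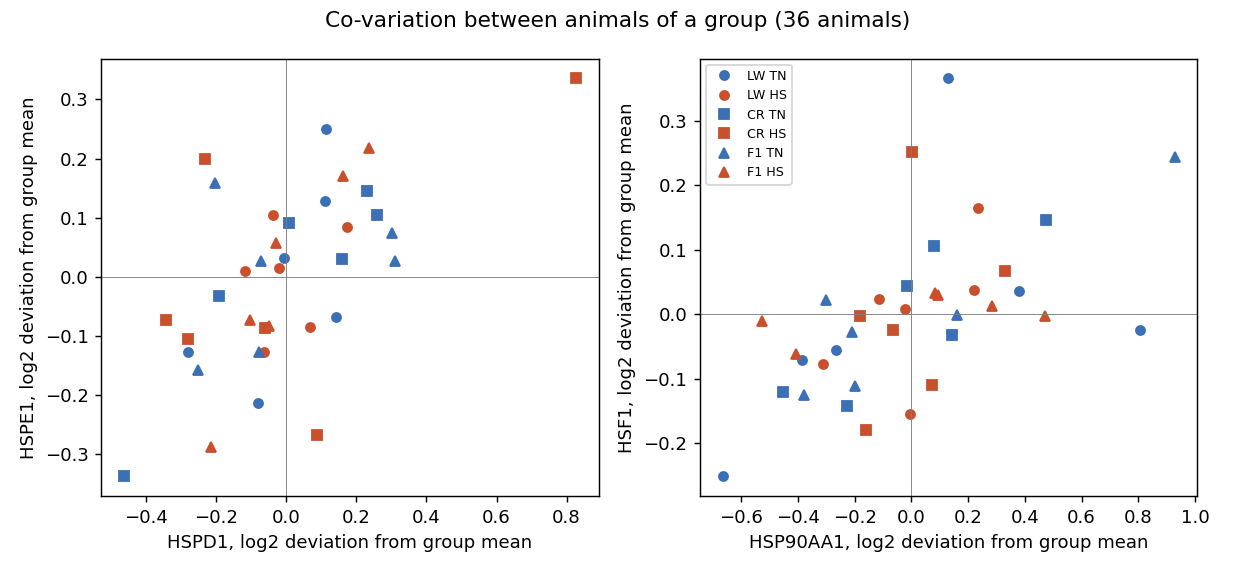
Deviation from the group mean on the log2 scale in each of 36 animals, HSPE1 against HSPD1 (left) and HSF1 against HSP90AA1 (right); colours give temperature and shapes breed. Both clouds rise from lower left to upper right (r = 0.614 and 0.558), and 1 CR HS animal lies far right for HSPD1.

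Outside the members, the genes whose representative probes followed each one most closely between animals were sought among 11359 named genes by Pearson's r over the same 36 deviations. For HSP90AA1 these were EIF5B (0.776), RPRD1B (0.766) and DDX21 (0.764), and for HSP90AB1 CPT1B (0.723), NR2F1 (0.642) and C5H12orf10 (0.634). AHSA1 was followed by CDK2AP2 (0.748), COX17 (0.747) and AAR2 (0.739), and FKBP4 by POR (0.758), RANGAP1 (0.741) and CHCHD10 (0.731). HSPD1 was followed by MRFAP1 (0.790), TDH (0.772) and KIAA0564 (0.747), HSPE1 by LOC100522678 (0.839), DLST (0.812) and PGAM1 (0.798), and HSF1 by MARK3 (0.798), TRMT2A (0.715) and ASPDH (0.679). All arrays share their libraries and normalization, and these are the highest of many values, so they are descriptions only. The 95th percentile of r over all genes searched was between 0.352 and 0.483.

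The other genes of the pathway were read at their representative probes for HS minus TN. Of 20 HSP90 paralogs and co-chaperones 17 had a kept probe, and none passed. Their median difference was -0.07, beside 0.00 for all named genes, and 13 of 17 were below 0, where 51.9% of all named genes were. Within LW 9 of 17 were below 0, within CR 11 and within F1 13, where 51.6%, 53.0% and 49.3% of all named genes were. CHORDC1, a zinc-binding HSP90 partner, and FKBP5, an immunophilin of steroid receptors, had the smallest p, at -0.26 ± 0.08 and -0.39 ± 0.14 (adjusted p = 0.106 and 0.171), each with 15 of 18 HS animals below the TN mean of their breed. Among 14 other heat shock genes 4 passed and all 4 fell, where of all 11366 named genes 46 passed as higher and 60 as lower: HSPA8 by 0.68 (adjusted p = 0.0131), BAG3 by 0.64 (0.046), HSPH1 by 0.53 (0.0092) and HSPB8 by 0.25 (0.0471). HSPA8 is the constitutive cytosolic HSP70, HSPH1 its nucleotide exchange factor, BAG3 an HSP70 co-chaperone and HSPB8 a small heat shock protein that works with BAG3. The median over all 14 genes was -0.07.

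The regulators HSF2, HSBP1 and DAXX did not pass, with HSBP1, an HSF1-binding protein, at -0.17 ± 0.07 (adjusted p = 0.235) and DAXX at -0.01 ± 0.05 (adjusted p = 0.952). The 13 mitochondrial chaperones and proteases measured did not pass either and had a median of 0.02. TRAP1, the mitochondrial HSP90, stood at 0.20 ± 0.16 (adjusted p = 0.679) and SPG7, a protease subunit, at -0.05 ± 0.05 (adjusted p = 0.791). Among 13 HSP90 clients, 1 passed: ESR1, the oestrogen receptor alpha, fell by 0.33 (adjusted p = 0.00894), on 1 of its 4 probes past the threshold and in 17 of 18 HS animals below the TN mean of their breed. The clients' median was 0.03.

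The samples carried the defining markers of hepatocytes at high level: over 6 of 7 markers with a probe the mean log2 signal was 16.69 to 16.99 in every animal. For HS minus TN no marker of any of 8 cell type lists passed, but the 3 markers of dividing cells had a median difference of -0.55. For CR minus LW the 4 macrophage markers were all lower (median -0.52, 2 passed, mean log2 signal 10.59 to 10.99 in CR and 11.02 to 11.56 in LW). Of the 4 endothelial markers 3 were lower and passed (median -0.51, 9.12 to 9.88 in CR and 9.40 to 10.06 in LW), and of the 6 lymphocyte markers 3 passed as lower (median -0.26). The 6 stellate cell markers were all below 0 with none past the threshold (median -0.20), 1 hepatocyte marker passed as lower and 1 bile duct marker as higher. Of all 11366 named genes 1325 passed as higher and 1617 as lower in this comparison. For F1 minus LW, where 830 passed as higher and 1146 as lower, the same 4 macrophage markers were lower (median -0.37, 2 passed), 3 endothelial markers (median -0.36) and 2 lymphocyte markers (median -0.16) passed as lower, and the 6 stellate cell markers were below 0 with none past the threshold (median -0.21). Their part in the breed differences above was not tested. Arrays lay on 5 slides, each with both temperatures. Slide 1 held 2 LW TN, 1 CR HS and 1 F1 HS animals, so temperature and breed cannot be told apart on it.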

How the data were processed

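The authors deposited 1 scanner table per array, made with Agilent Feature Extraction 10.10.1.1, whose median, mean, background and processed signals are linear intensity values not normalized between arrays, and a table of log2 values that, by their methods, were quantile normalized median signals. Against the scanner values, the deposited log2 table followed differences between arrays (r of at least 0.791 per array) but not levels between probes (r = -0.125), so how its levels were centred stays unknown and it served only for differences. Its column medians were all 7.66. Median signals were log2 transformed and quantile normalized over 60306 non-control spots; no spot was saturated, and spots flagged as non-uniform were set as missing. Between 39644 and 44025 spots per array were well above background, and the number of arrays limits the precision. The well-above-background flags are other values in the deposited scanner tables. Probes were named from the files and the RefSeq gene table of Sscrofa11.1.

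Tests used limma 3.58.1 (R 4.3.3) over all kept probes with Benjamini-Hochberg adjustment, breed and temperature as fixed effects, and a means model of the 6 groups for the interaction and the within-breed comparisons. The random effects of pen, day and parents in the study's model could not be used. Correlations used numpy 2.4.6 with 100000 permutations within groups. Scripts were tested on simulated data. Named genes of a list are those that passed for HS minus TN (up to 6 by size), otherwise the 2 with the smallest p; the 3 most similar genes are those with the highest r. The members, lists and tests were chosen with earlier results of these data known. Alternatives were other signals, normalizations, filters, slide blocks, array weights, spread models and left-out arrays or slides.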

Additional observations from a re-analysis of the deposited data

Results flagged for a closer look

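In each of the 6 groups, the highest and lowest animal of each representative probe was compared with its neighbour, over 42 groups of 6 animals. A pair stood far from the others, where about 1 in 20 groups (2.1 of 42) would by chance. HSPE1 in CR TN 1 was the lowest of its group at 15.61, with the next animal at 15.92 and a gap of 0.634 of the group's range. HSPD1 in CR HS 6 was the highest of its group at 15.71, with the next animal at 14.97 and a gap of 0.631 of the range.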

How the results depend on the processing

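No paired analysis was possible because the replicate numbers were given in accession order and pair no animals. Of 150 alternative counts of called probes or pairs, other than those leaving out 1 animal, 127 stayed within 1.5 times the reported count. For HS minus TN the count of 0 became 1, the AHSA1 representative, with slide as a random or fixed block, processed signal, normexp correction or probes above background on all 36 arrays, and was 0 to 2 without single animals. The former fits called 0.768% to 1.26% of all probes tested, and those without single animals 0.451% to 1.19%. For CR minus LW the count of 17 became 9 with processed signal (28.6% of all probes called), 8 with the authors' log2 table (27.9%), 2 of 7 with 1 value per gene (26.3% of all genes), 7 without slide 3 (12.7%) and 6 without slide 4 (17.6%). Without single animals the count was 11 to 21 (23.6% to 28.3%), with 11 without LW TN 5 (24.5%). For F1 minus LW the count of 10 became 0 with 1 value per gene (17.0% of all genes), 5 without slide 2 (9.58%), 1 without slide 3 (3.54%) and 16 without the 5 animals apart (32.3%). For F1 minus CR it became 1 without those 5 (2.39%). For F1 minus the parental mean the count of 0 became 2 with slide as a random block (1.42%), array weights (3.70%), probes above background on all 36 arrays (1.53%) or without slide 4 (0.482%). It became 1 with slide as a fixed block (1.42%) or the authors' table (1.09%), 7 without the 5 animals (17.0%), and 0 to 3 without single animals (0.569% to 2.64%). The number of correlated pairs rose from 2 to 4 with the authors' table, where HSPD1 with HSPE1 (r = 0.676), FKBP4 with HSPE1 (0.585), AHSA1 with HSPE1 (0.508) and AHSA1 with FKBP4 (0.462) passed and HSP90AA1 with HSF1 did not. With processed signal FKBP4 with HSPE1 (0.643) and AHSA1 with FKBP4 (0.514) also passed. Signs turned only in values near 0: HSPE1 for HS minus TN was -0.0075 with processed signal and -0.0045 without the 5 animals; FKBP4 A_72_P352858 was 0.0337 without slide 3, 0.0123 without slide 5 and -0.0315 to 0.0175 without single animals, and within CR 0.0739 without slide 5 and -0.0646 to 0.0365 without single animals. The causes were not tested. Signal was well above background for every member probe on every array.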
